A study of Drosophila melanogaster with 18 samples.

Results

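Insulator proteins organise chromatin into separate domains and can block contact between enhancers and promoters. In Drosophila, BEAF, CTCF and SuHw bind DNA at their own motifs, and CP190 is a cofactor recruited to sites of each of them. The transcripts described here are those whose array signal divided the series into separate bodies of arrays, with no overlap and a wide gap. Of 16637 transcripts, 34 met the rule (0.204%), 14 as higher (0.0841%) and 20 as lower (0.12%) in the larger body of arrays. The members were chosen by the log2 signal of every array, so the levels in the sets describe that choice and carry no test.

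All cells were Kc, a Drosophila melanogaster line of embryonic origin, and all had received double-stranded RNA on each of 3 days before collection on day 4. The second set of arrays (12) held the single knockdowns CTCF and SuHw and the knockdowns of a pair of proteins, SuHw+CP190, CTCF+CP190, BEAF+CTCF and BEAF+CP190. The first set (6) held the single knockdowns BEAF and CP190 and the cells labelled WT, which had received double-stranded RNA against beta-galactosidase. Each of the 9 groups had 2 arrays, from independent experiments per the design text. The labels write the cell line as "Kc" in the second set and as "KC cells" in the first. No group has arrays in both sets. For any difference between the sets, effects of set and of knockdown therefore cannot be told apart, and Kc cells with no knockdown were measured in the first set only.

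A member had to have its lowest second-set array at least 2 log2 units (4-fold in signal) above its highest first-set array, or its highest second-set array at least 2 below its lowest first-set array. That gap is wide against the rest of the table. Without any minimum gap, the sets did not overlap for 3805 transcripts (22.9%), 1968 of them higher (11.8%) and 1837 lower (11%) in the second set. With a gap of 1 there were 57 and 126, and with a gap of 3 there were 5 and 4. Requiring the means of the groups, in place of single arrays, to lie apart by 2 gave 17 higher and 32 lower. Just inside the threshold lay FBtr0078566, with a gap of 2.02, and FBtr0080042, with a gap of 2.00. Just outside lay FBtr0081111, with a gap of 1.92 among the higher transcripts, and FBtr0100255, with 1.999 among the lower.

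**Figure D1:**
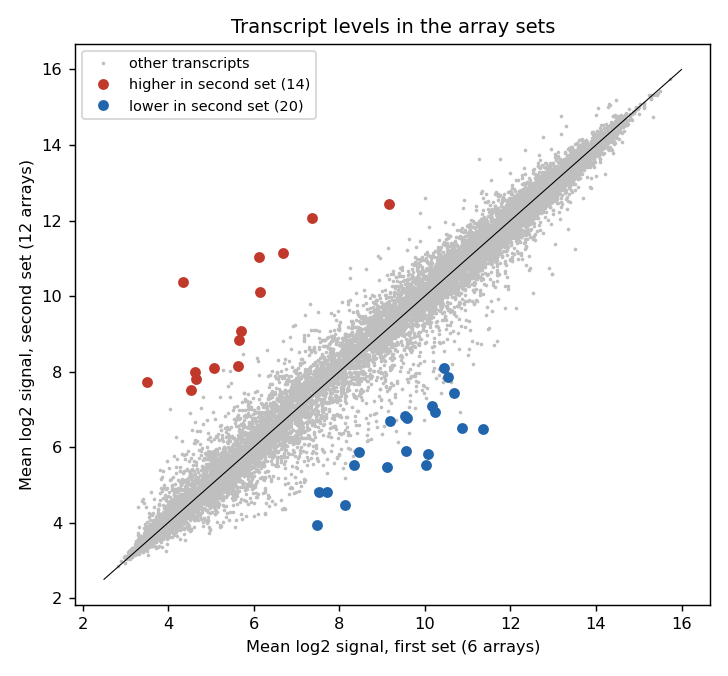
Mean log2 signal of each of the 16637 transcripts in the second set (vertical axis, 12 arrays) against the first set (horizontal axis, 6 arrays), with the line of equal signal. The 14 members higher in the second set (red) and the 20 lower members (blue) lie off the line, by mean differences of 2.52 to 6.05 and of -4.89 to -2.37.

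None of the 34 members could be paired with a gene. The given RefSeq gene table matched 16 transcripts of the whole array to 1 symbol, 28 to several and 16593 to none, and no member was among those matched. The members are therefore given by FlyBase transcript identifier and no role is stated for them. No pair of members had identical values. In 3 pairs the identifiers had consecutive numbers, and all 3 pairs were higher in the second set.

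Across the 14 higher members, the mean second-set signal ran from 7.50 to 12.44 on the log2 scale, with a median of 8.95. Their mean first-set signal ran from 3.50 to 9.15, with a median of 5.64. The difference of the means was between 2.52 and 6.05 log2 units, and the median difference of 3.37 corresponds to a 10.3-fold higher signal. The 20 lower members had second-set means of 3.93 to 8.08, with a median of 6.20, against first-set means of 7.47 to 11.37, with a median of 9.57. Their difference ran from -4.89 to -2.37, with a median of -3.16, an 8.96-fold difference in signal. These folds compare signals. Near the low end of the array's range a signal may be mostly background, and the RNA could then differ by more.

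Few members went between the bottom and the top of the signal range. Over all values of the table the lower quartile was 5.43, the median 9.30 and the upper quartile 11.74. The first-set mean was under the lower quartile in 6 of the 14 higher members, and in those 6 every first-set array was under it. The second-set mean was above the median in another 5 of the 14 and in 1 of those 6, and above the upper quartile in 2. Among the 20 lower members, the second-set mean was under the lower quartile in 4, and in each of the 4 the first-set mean was not above the median. The first-set mean was above the median in 12 of the 20 and above the upper quartile in none. In all 34 members the set with the lower signal averaged below the median of the table. A change between a signal under the lower quartile and one above the median was thus seen in 1 of the 34, FBtr0088865. The table has no detection call, so whether a transcript was absent from a set was not tested, and fewer cells with a transcript cannot be told apart from less of it per cell.

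FBtr0088865 had the widest gap of all members, 4.93. Its log2 signal was 9.74 at the lowest, 10.49 at the median and 10.76 at the highest of the 12 second-set arrays, against 3.90, 4.35 and 4.81 in the first set. Every second-set array was thus high, and every first-set array lay under the lower quartile of the table. The means were 10.39 ± 0.33 (SD over 12 arrays) and 4.34 ± 0.32 (SD over 6 arrays), a 66.2-fold higher signal in the second set. FBtr0112532, next in width, had 11.93, 12.04 and 12.34 as lowest, median and highest in the second set, against 7.05, 7.37 and 7.61 in the first. Its second-set level lay above the upper quartile of the table, and its first-set level between the lower quartile and the median. Its signal was 26.2-fold higher in the second set, and its 12 second-set arrays spanned only 0.41.

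FBtr0075682 had the widest gap among the lower members, 4.51. Its second-set arrays ran from 6.20 to 6.70 with a median of 6.53, against 11.21 to 11.63 with a median of 11.27 in the first set. The means were 6.48 ± 0.16 (SD over 12 arrays) and 11.37 ± 0.19 (SD over 6 arrays), a 29.6-fold difference in signal. FBtr0083470 ran from 5.06 to 6.46 with a median of 5.85 in the second set, against 9.93 to 10.39 with a median of 9.95 in the first. Its lowest value was that of SuHw replicate 2, and the other SuHw array had 6.04.

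**Figure D2:**
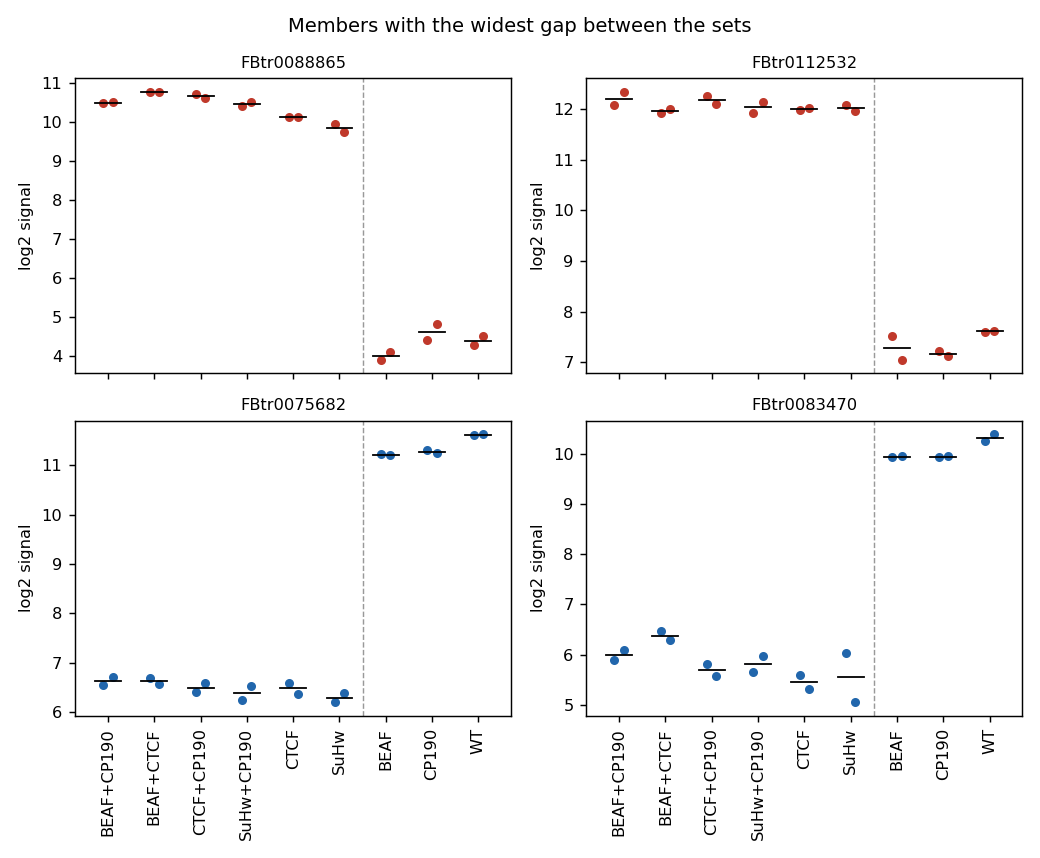
Log2 signal in each array (points) and group means (bars) of the members with the widest gap, higher in the second set in red and lower in blue, with second-set groups left of the dashed line and first-set groups right of it. In each panel the 12 second-set arrays and the 6 first-set arrays are separated by at least 3.46 log2 units.

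The division was shared by all groups of a set. Medians over the 14 higher members lay between 8.48 in CTCF+CP190 and 9.15 in CTCF in the second set, against 5.63 in BEAF, 5.59 in CP190 and 5.69 in WT. Over the 20 lower members they lay between 6.06 in SuHw and 6.54 in BEAF+CTCF, against 9.43 in BEAF, 9.53 in CP190 and 9.91 in WT. In each of the 34 members the gap was wider than the whole range of either set. Within the second set the range of a member had a median of 0.96 for the higher and 0.76 for the lower members, and within the first set 0.46 and 0.72. The spread between replicates was smaller again. The root mean square SD of the 34 members ran from 0.078 in CTCF to 0.196 in SuHw, where over all transcripts it ran from 0.0813 to 0.148 (n = 2 arrays each).

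**Figure D3:**
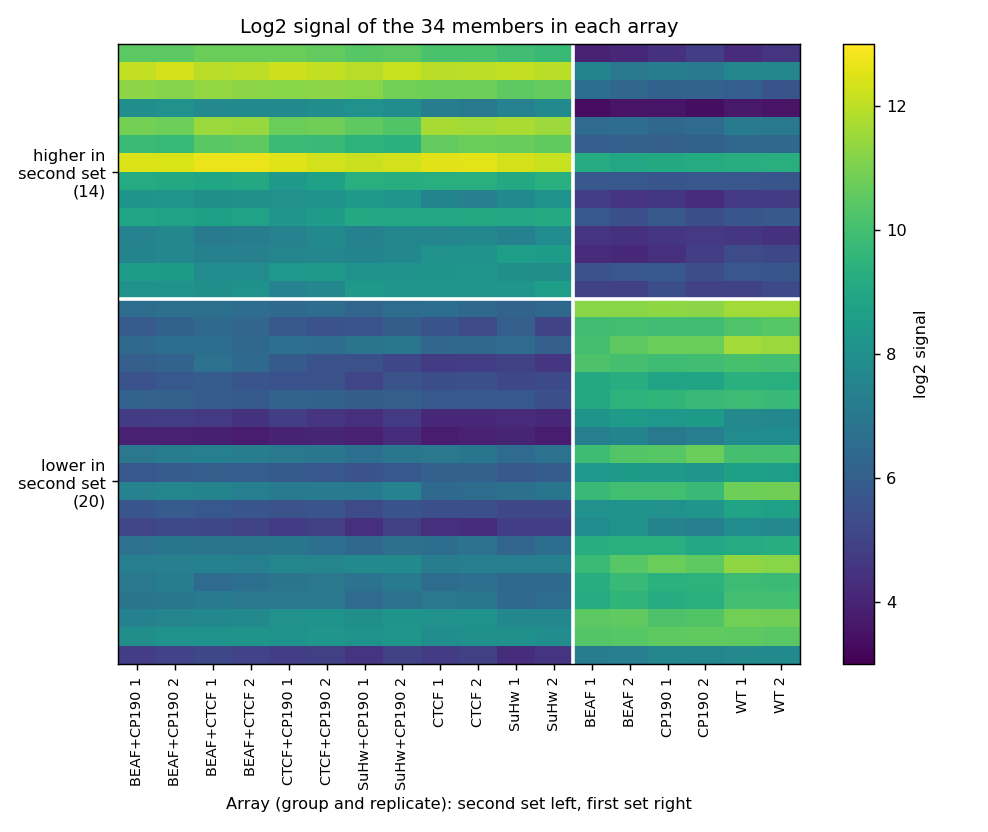
Log2 signal (colour) of the 34 members (rows, widest gap at the top of each block) in the 18 arrays (columns), with second-set arrays left of the white line. Each row changes its level at the white line: the 12 second-set columns are brighter for the 14 higher members and darker for the 20 lower members than the 6 first-set columns.

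Arrays of different sets also differed across the whole table, which is the setting of these members. Across transcripts, arrays of different sets correlated at 0.978 to 0.990, arrays of different groups in 1 set at 0.989 to 0.998, and replicates at 0.998 to 0.999. Array medians were all between 9.27 and 9.33. RMA usually makes the intensity distributions of arrays alike, so these medians say nothing of a difference between the sets before it. With the arrays quantile-normalized, 13 were higher, 12 of them among the 14, and 22 lower, all 20 among them.

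Groups of 1 set were compared with limma, with p-values adjusted by Benjamini-Hochberg over all 16637 transcripts and called under 0.05. The rule fixed no direction between groups of 1 set, but it read the same arrays. The extreme arrays of a set decide membership, and without BEAF replicate 1, 29 transcripts in place of 20 were lower in the second set. The counts of members called within a set are therefore not independent of the choice, and are given as a description beside the share of all transcripts. Most members also differed among the groups of the second set. Among the 6 second-set groups 28 of 34 members differed by limma's moderated F test, 12 of the 14 higher and 16 of the 20 lower ones, where 48.6% of all transcripts did. Among BEAF, CP190 and WT, 21 of 34 differed, 6 of the higher and 15 of the lower members, where 45.6% of all transcripts did.

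In the first set more members fell than rose after BEAF knockdown, whichever way they divided the sets. In BEAF against WT 17 of the 34 were called, where 41.7% of all transcripts were. Of these members 15 fell and 2 rose, where 20% of all transcripts fell and 21.7% rose. The median log2 difference was -0.28 over the members and 0.03 over all transcripts. Of the 20 members that were lower in the second set, 11 fell and 1 rose, with a median of -0.36. Of the 14 that were higher in the second set, 4 fell and 1 rose, with a median of -0.18. The falls of the first kind run toward the second-set level, and those of the second kind run away from it.

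FBtr0085679 had the largest fall in BEAF against WT. It had log2 signals of 10.06 and 10.53 in BEAF, against 11.63 and 11.48 in WT, a log2 difference of -1.26 (SE 0.15, limma adjusted p = 4.2e-05). Both BEAF arrays lay under both WT arrays, and far above the highest second-set array at 6.93. FBtr0072588 had 9.83 and 10.40 in BEAF, against 11.33 and 11.23 in WT, and fell by 1.17 (SE 0.13). The rises were those of FBtr0088866, with 6.63 and 6.31 in BEAF against 5.98 and 5.62 in WT, and of FBtr0086819, with 8.18 and 8.47 in BEAF against 7.71 and 7.66 in WT. FBtr0086819 thus rose although it was lower in the second set (4.09 to 4.83). Among the members with the widest gap, FBtr0075682 fell by 0.40 (SE 0.10, limma adjusted p = 0.0085) and FBtr0088865 fell by 0.39 (SE 0.12, limma adjusted p = 0.018). First-set signals of FBtr0088865 lay under the lower quartile of the table and may be mostly background. FBtr0088865 was not called without WT replicate 2 (-0.28), without BEAF replicate 1 (-0.30), or with only first-set arrays in the fit.

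CP190 knockdown changed 18 of the 34 members against WT, where 35% of all transcripts were called. Of these 16 fell and 2 rose, where 19.4% of all transcripts fell and 15.5% rose. It shares the WT arrays with the BEAF comparison, so the pair of comparisons is not independent. Of the 20 lower members 12 fell and 2 rose, with a median log2 difference of -0.38, and of the 14 higher members 4 fell and none rose, with a median of -0.14. Over all transcripts the median was 0.01. Without any 1 of the CP190 or WT arrays fewer members were called, and so was a smaller share of all transcripts. Each such fit left 1 array in a group. FBtr0088315 fell by 0.94 (SE 0.12, limma adjusted p = 9.7e-05), with 9.96 and 9.76 in CP190 against 10.78 and 10.83 in WT. FBtr0085679 had 10.72 in both CP190 arrays and fell by 0.83 (SE 0.15). FBtr0086819 rose by 0.70 (SE 0.12), with 8.32 and 8.45 in CP190 against 7.71 and 7.66 in WT. FBtr0080615 rose by 0.55 and was not called without CP190 replicate 2 (0.37) or without WT replicate 2 (0.53). FBtr0112532 fell by 0.44 and FBtr0075682 by 0.34. Both were not called without WT replicate 1, WT replicate 2 or CP190 replicate 2, FBtr0075682 also not without CP190 replicate 1, and FBtr0112532 not with quantile normalization (-0.29) or with only first-set arrays in the fit.

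Between BEAF and CP190 arrays 4 of 34 members were called (11.8%), close to the 10.8% of all transcripts. In BEAF against CP190, 1 member rose, 3 fell and 30 were not called, where 5.73% of all transcripts rose and 5.09% fell. The member that rose was FBtr0070631 (0.58, SE 0.14, limma adjusted p = 0.018). The largest fall was that of FBtr0088865 (-0.61, SE 0.12, limma adjusted p = 0.0054), with 3.90 and 4.10 in BEAF against 4.41 and 4.81 in CP190. These signals of FBtr0088865 lay under the lower quartile of the table and may be mostly background. The count of 4 was lower without BEAF replicate 1 or CP190 replicate 2, and higher without BEAF replicate 2 or CP190 replicate 1. In each of these fits 1 array was left in a group, and the share of all transcripts called was lower. FBtr0088865 lost its call without BEAF replicate 1 (-0.52), and FBtr0070631 without BEAF replicate 2 (0.44) or CP190 replicate 2 (0.51). In the first set, WT was the highest group for 9 of the 14 higher members and for 14 of the 20 lower members.

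**Figure D4:**
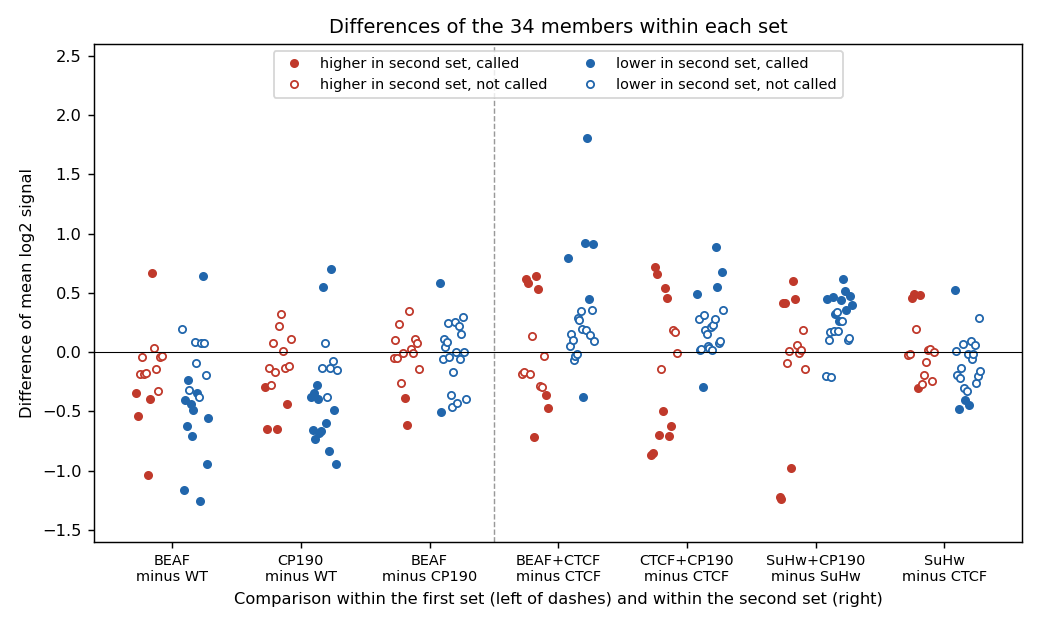
Difference of mean log2 signal (vertical axis) of each member in 7 comparisons within a set, for members higher (red) and lower (blue) in the second set, filled where limma's adjusted p was under 0.05. Most called differences of the lower members are below 0 in BEAF and CP190 against WT and above 0 in the double knockdowns against their CTCF or SuHw single.

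In the second set the 20 lower members had mostly positive differences between a double knockdown and its CTCF or SuHw single, in 18 of 20 with SuHw+CP190, 19 with CTCF+CP190 and 16 with BEAF+CTCF. Adding CP190 knockdown to SuHw knockdown raised 10 of the 20 and lowered none by the test, with 10 not called and a median log2 difference of 0.29, where 14.6% of all transcripts rose, 13.7% fell and the median was 0.01. Of the 14 higher members 4 rose, 3 fell and 7 were not called. The largest differences were falls of FBtr0071053 and FBtr0071052, described below, while FBtr0088865 rose by 0.60 (SE 0.12, limma adjusted p = 0.0024), with 10.39 and 10.50 in SuHw+CP190 against 9.95 and 9.74 in SuHw. FBtr0085679 rose by 0.62 but was not called without SuHw replicate 2 (0.39) or SuHw+CP190 replicate 2 (0.57). The total of 17 members called, where 28.4% of all transcripts were, was made up of 14 rises and 3 falls. The total of 17 was lower without any single one of the 4 arrays, and each such fit left 1 array in a group. The share of all transcripts called was lower too, except without SuHw replicate 1. Without SuHw+CP190 replicate 2 called rises no longer outnumbered called falls, while without any other array they did.

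Adding CP190 knockdown to CTCF knockdown gave 15 members that were called, 10 of the 14 higher and 5 of the 20 lower ones, where 24.4% of all transcripts were called. Of the higher members 4 rose and 6 fell, and of the lower members 4 rose and 1 fell, where 12.6% of all transcripts rose and 11.8% fell. The lower members had a median log2 difference of 0.20, and 15 of them were not called. FBtr0076174 rose by 0.71 (SE 0.12, limma adjusted p = 0.00071), with 7.79 and 7.89 in CTCF+CP190 against 7.22 and 7.03 in CTCF. FBtr0088865 rose by 0.54 (SE 0.12).

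Adding BEAF knockdown to CTCF knockdown changed 13 members, where 21.9% of all transcripts were called. Of the members 9 rose and 4 fell, where 11.9% of all transcripts rose and 10% fell. This comparison shares the CTCF arrays with the preceding one. Of the 20 lower members 5 rose and 1 fell, and of the 14 higher members 4 rose and 3 fell. FBtr0088865 rose by 0.64 (SE 0.12, limma adjusted p = 0.0021), with 10.76 in both BEAF+CTCF arrays against 10.12 and 10.11 in CTCF. FBtr0084810 fell by 0.72 (SE 0.11). The next fall, of FBtr0113819 (-0.48), was not called without any single one of the 4 arrays (-0.42 to -0.53) or with only second-set arrays in the fit. The total of 13 was lower without any single one of the 4 arrays, and so was the share of all transcripts called. Each such fit left 1 array in a group.

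SuHw against CTCF, the single knockdowns of the second set, had 8 members called, where 16.8% of all transcripts were. Of the members 4 rose and 4 fell, where 7.63% of all transcripts rose and 9.12% fell. FBtr0082993 fell by 0.45 (SE 0.079, limma adjusted p = 0.0018) and FBtr0070631 rose by 0.52 (SE 0.14). FBtr0070631 was not called without any single one of the 4 arrays. Its signals in those arrays lay under the lower quartile of the table and may be mostly background. The total of 8 was lower without any single one of the 4 arrays, and each such fit left 1 array in a group. The share of all transcripts called was lower too, except without SuHw replicate 1. SuHw was the lowest second-set group for 12 of the 20 lower members, and BEAF+CTCF the highest for 8 of them.

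Some members combined a wide gap with large differences inside the second set. FBtr0071053 and FBtr0071052 spanned 1.45 and 1.40 there, the widest ranges among the higher members. FBtr0071053 had 10.52 and 10.27 in SuHw+CP190, against 11.72 and 11.55 in SuHw, and 10.75 and 10.85 in CTCF+CP190, against 11.67 and 11.62 in CTCF. It was also low in BEAF+CP190, at 10.90 and 10.80, and stood at 11.51 and 11.45 in BEAF+CTCF. The 6 arrays with CP190 knockdown thus all lay below the other 6 second-set arrays. It fell by 1.24 when CP190 knockdown was added to SuHw (SE 0.087, limma adjusted p = 5.6e-07) and by 0.85 when it was added to CTCF (SE 0.087). With BEAF added to CTCF its difference was -0.17 (SE 0.087, limma adjusted p = 0.19).

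FBtr0071052 had 9.48 and 9.33 in SuHw+CP190 against 10.68 and 10.57 in SuHw, and 9.83 and 9.75 in CTCF+CP190 against 10.58 and 10.73 in CTCF. It fell by 1.22 and 0.87 in those comparisons (SE 0.074 each). In the first set both transcripts were low, and both fell there as well. FBtr0071053 had 6.37 and 6.50 in CP190, against 7.11 and 7.05 in WT, a fall by 0.65 (SE 0.087), and 6.51 and 6.57 in BEAF, a fall by 0.54. FBtr0071052 fell by 0.30 in CP190 and 0.34 in BEAF (SE 0.074 each), and the call in CP190 was lost without CP190 replicate 1 (-0.26) and with quantile normalization (-0.13). These identifiers are consecutive, and over the 12 second-set arrays their signals correlated at 0.988. Whether consecutive transcripts belong to 1 gene or share probes is not stated in the labels or the table.

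The other consecutive pairs were FBtr0076174 with FBtr0076175, correlated at 0.985, and FBtr0088865 with FBtr0088866, correlated at 0.897 over the same 12 arrays. Over the 6 first-set arrays the correlations were 0.959 for FBtr0071052 with FBtr0071053, 0.212 for FBtr0076174 with FBtr0076175 and -0.622 for FBtr0088865 with FBtr0088866. In those 6 arrays FBtr0076174, FBtr0076175 and FBtr0088865 were under the lower quartile of the table. Next to FBtr0088866, the member most like FBtr0088865 over the 12 arrays was FBtr0079532, at 0.519. Those most like FBtr0075682 were FBtr0080615, at 0.891, and FBtr0087438, at 0.876. These correlations are over arrays that share their groups and are given as a description.

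Among the lower members FBtr0086621 spanned 2.18 in the second set, more than any other member. It had 6.77 and 6.42 in BEAF+CTCF, 6.01 and 6.15 in BEAF+CP190, 5.83 and 5.52 in CTCF+CP190 and 5.47 and 5.12 in SuHw+CP190, against 4.77 and 4.81 in CTCF and 4.96 and 4.59 in SuHw. All 8 double-knockdown arrays lay above the 4 arrays of the CTCF and SuHw singles. Those 4 arrays and SuHw+CP190 replicate 2 lay under the lower quartile of the table, and their signals may be mostly background. FBtr0086621 rose by 1.81 in BEAF+CTCF against CTCF (SE 0.15, limma adjusted p = 6.3e-06) and by 0.89 in CTCF+CP190 against CTCF (SE 0.15). The rise by 0.52 in SuHw+CP190 against SuHw was not called without SuHw+CP190 replicate 1 (0.34), without SuHw replicate 2 (0.33) or with only second-set arrays in the fit. In the first set it varied little, with 10.20 and 10.07 in BEAF, 9.88 and 9.95 in CP190 and 10.08 and 10.03 in WT. There its difference from WT was 0.078 in BEAF and -0.14 in CP190 (SE 0.15 each), and neither was called.

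FBtr0083470, with the next widest range among the lower members (1.41), had 6.46 and 6.28 in BEAF+CTCF against 5.59 and 5.32 in CTCF. It rose by 0.92 there (SE 0.23, limma adjusted p = 0.012), and was not called without BEAF+CTCF replicate 1 (0.83) or CTCF replicate 2 (0.78).

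**Figure D5:**
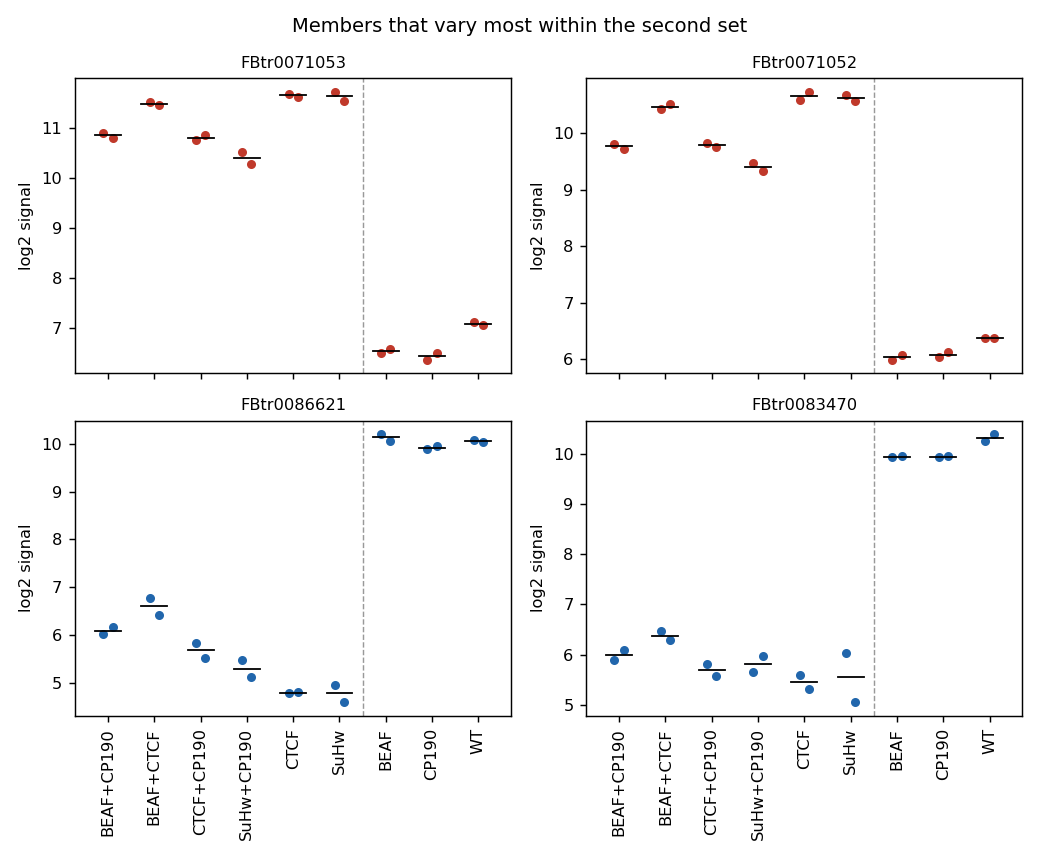
Log2 signal in each array (points) and group means (bars) of the members with the widest range within the second set, higher in that set in red and lower in blue, with second-set groups left of the dashed line. FBtr0071053 and FBtr0071052 are lower in the groups with CP190 knockdown, and FBtr0086621 is higher in the double knockdowns than in CTCF or SuHw alone. In CTCF and SuHw the signal of FBtr0086621 lay under the lower quartile of the table and may be mostly background.

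Whether the same knockdown went with the same change in both sets was examined as the difference of its effects. The rule read these same arrays in both sets. The counts and p-values of these tests are therefore not independent of the choice of members, and are given as a description. For BEAF 16 members were called, where 28.8% of all transcripts were. The BEAF effect in the second set (BEAF+CTCF against CTCF) minus that in the first (BEAF against WT) was called positive for 16 members and negative for none, where 15.2% of all transcripts were positive and 13.6% negative. Of the 16, 12 were lower members. For CP190 with CTCF 18 members were called, where 27.4% of all transcripts were. The difference was called positive for 15 and negative for 3, where the shares of all transcripts were 15.7% and 11.6%. With SuHw 16 were called, where 29.8% of all transcripts were. It was called positive for 14 and negative for 2, where they were 17.1% and 12.7%. In each of the 3 tests 12 of the 20 lower members were called positive and none negative. Over all 20, called or not, the median differences were 0.57, 0.61 and 0.62. The 3 tests share WT arrays, and those for CP190 share the CP190 arrays. The test for BEAF and that for CP190 with CTCF also share the CTCF arrays.

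FBtr0088315 had 7.48 and 7.32 in BEAF+CTCF against 6.43 and 6.55 in CTCF, and 9.73 and 9.99 in BEAF against 10.78 and 10.83 in WT. Its BEAF effect was 0.91 in the second set and -0.94 in the first (SE 0.12 each), a difference of 1.85 (SE 0.17, limma adjusted p = 1.4e-05). The CP190 effect on it differed by 1.62 with CTCF and by 1.41 with SuHw (SE 0.17 each). FBtr0071052 went the other way with SuHw, at -0.93 (SE 0.11, limma adjusted p = 4e-05). Its log2 difference was -1.22 in SuHw+CP190 against SuHw and -0.30 in CP190 against WT. The latter lost its call with quantile normalization. The second knockdown of each pair, the set and the low signal in 1 of the sets differ together in these tests and cannot be told apart.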

How the data were processed

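RNA from 18 samples was measured on 1-colour (Cy3) NimbleGen arrays. The authors deposited 1 table of log2 signals per FlyBase transcript. The submitters' processing notes name RMA and Partek without versions. Whether all arrays were normalized together is not stated there. Every column was matched to its sample by name. No filter or further normalization was applied, and depth does not apply: the 2 arrays per group limit the precision.

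Members were found by the gap of 2 on the log2 scale. A mean per group was fitted with limma 3.58.1 (lmFit and eBayes, R 4.3.3) to the values of the 18 arrays. The fit had 9 residual and 3.68 prior degrees of freedom, and p-values were adjusted by Benjamini-Hochberg over 16637 transcripts. Each SE rests on the spread of a transcript pooled over the 9 groups, not on the groups compared. That spread was unequal: the root mean square SD of the 34 members was 0.187 in BEAF and 0.085 in WT. The fit was tested on simulated arrays with independent normal noise and changes planted in BEAF only. That simulation had no difference between the sets and no unequal spread of groups, so it cannot speak to those. The 3 tests of a knockdown effect between sets were added after the data were examined. The members, lists and comparisons were chosen with earlier results of these data known.

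Up to 2 members each way were named per description or comparison: those with the widest gap, the widest second-set range, the gap nearest the threshold or the largest called change, and the 2 most like the widest. Members singled out again elsewhere were chosen after their values were seen. Gene and cell marker lists, including those of the targeted proteins, could not be run without gene names, so the knockdowns and the cell line were not checked. Replicate numbers were not used to pair the samples in the main fit. Differences between replicates correlated between groups at -0.199 to 0.453, and over 0.1 in 10 of 36 pairs of groups. Whether samples of some groups with the same number were handled together was not tested.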

Additional observations from a re-analysis of the deposited data

Results flagged for a closer look

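The effect of a knockdown differed between the sets for 16 members in the case of BEAF (with CTCF against WT), for 18 in the case of CP190 with CTCF and for 16 in the case of CP190 with SuHw, each by limma's test of that difference. Shares of all transcripts called in these tests were 28.8%, 27.4% and 29.8%. The rule read the same arrays, so these counts are not independent of the choice of members. The second knockdown and the set cannot be told apart here, and the part of low signals was not tested.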

How the results depend on the processing

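The number of members moved with the gap: a gap of 1 gave 57 higher and 126 lower, a gap of 3 gave 5 and 4, and group means gave 17 and 32. Leaving out any 1 array gave 14 to 15 higher and 20 to 29 lower. Testing only transcripts above the median mean signal left 4 members in the test, and called 3 in BEAF against WT, 3 in CP190 against WT, 0 in BEAF against CP190, 1 in BEAF+CTCF against CTCF, 2 in CTCF+CP190 against CTCF, 2 in SuHw+CP190 against SuHw, 1 in SuHw against CTCF, 2, 1 and 2 in the tests of BEAF, CP190 with CTCF and CP190 with SuHw between sets, and 3 each in the F tests of the first and the second set. At most 4 could be called there, too few to read against a share. Of all transcripts tested there, 51.8% were called in BEAF against WT, 44% in CP190 against WT and 12.8% in BEAF against CP190. Shares were 27.9% in BEAF+CTCF against CTCF, 33.1% in CTCF+CP190 against CTCF, 36% in SuHw+CP190 against SuHw and 17.3% in SuHw against CTCF. In the 3 tests between sets they were 35.4%, 36.1% and 38.2%. Leaving out 1 array called 11 to 17 members in CP190 against WT, 1 to 5 in BEAF against CP190, 7 to 10 in BEAF+CTCF against CTCF, 9 to 12 in SuHw+CP190 against SuHw and 1 to 5 in SuHw against CTCF. With 1 array left in a group, the share of all transcripts called in these comparisons was also lower than in the main fit. The exception was the fit without SuHw replicate 1, where that share was higher. The lower counts of members are therefore not particular to the members. The cause was not tested. With the replicate number as a block, 18 members were called in BEAF against WT, where 41.9% of all transcripts were. In CP190 against WT 17 were called, where 34.9% of all transcripts were. In BEAF against CP190 6 were called, where 11% of all transcripts were. No count moved by over 1.5 times with the block. The block, quantile normalization, eBayes with trend and robust settings and a fit of 1 set alone kept each of the within-set counts within 1.5 times. For the transcripts named with a called difference, 376 recomputed differences kept direction and call, 45 kept direction and lost the call, and none turned.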
